A study of Mus musculus with 8 samples.

Results

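The 10 survival genes examined here belong to the BCL2 network and were measured in heart macrophages, and the gene family Bcl2a1 (also called A1) supplied 3 of them as near-identical copies. The 10 genes, Bcl2a1a, Bcl2a1b, Bcl2a1d, Mcl1, Bcl2l1, Bcl2, Cflar, Bcl2l11, Bid and Bax, were chosen by name from the 53342 genes in each deposited table. A combined value, the sum of the 3 Bcl2a1 copies, was followed as well. Of the 10 genes, 8 passed the filter on low counts and entered a test with 5256 genes in all, while Bcl2a1d and Bcl2 did not pass it.

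The cells came from the infarcted hearts of wild-type C57BL/6 mice of 8 weeks, 3 days after myocardial infarction. They were sorted into macrophages with a low and a high level of the surface antigen Ly6C, named Ly6Clo and Ly6Chi, and kept in RPMI medium for 24 hours. Each subset was cultured with the T cell cytokine interleukin 21 (IL-21, 100 ng/mL) or without it, which gave 4 groups of 2 libraries: Ly6Clo with IL-21, Ly6Clo without, Ly6Chi with IL-21 and Ly6Chi without. The design text also names mice that lack the IL-21 receptor, and these were not analysed here. The labels do not say whether the libraries of a group came from separate mice or cultures, so a p-value covers no more than the spread among these libraries, which may be technical.

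BCL2 proteins decide whether a cell keeps the outer membrane of its mitochondria intact. Guards such as A1, MCL1, BCL-XL and BCL2 bind and hold back the effectors BAX and BAK, and BH3-only proteins such as BIM and BID tip the balance towards opening the membrane, which releases cytochrome c and activates caspases. A1 and MCL1 are short-lived proteins, so that their messenger RNA supply matters to myeloid cells. The protein of Cflar, c-FLIP, acts earlier, where it holds back caspase-8 at death receptors.

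The Bcl2a1 copies lie on mouse chromosome 9 (GRCm38, GENCODE M21 annotation). Bcl2a1a spans chr9:88956900-88962419 on the plus strand, Bcl2a1b chr9:89199209-89207827 on the plus strand and Bcl2a1d chr9:88723285-88731914 on the minus strand. Their coding sequences are 519 bases long, and Bcl2a1a differs from Bcl2a1b at 11 positions and from Bcl2a1d at 7, while Bcl2a1b and Bcl2a1d differ at 6. The last 150 coding bases, up to and including the stop codon, are shown because the QuantSeq libraries read the 3′ ends of messenger RNAs and these bases hold part of what separates the copies there. Capitals mark the 3 positions at which the copies differ, counted from the first base shown.
Bcl2a1a: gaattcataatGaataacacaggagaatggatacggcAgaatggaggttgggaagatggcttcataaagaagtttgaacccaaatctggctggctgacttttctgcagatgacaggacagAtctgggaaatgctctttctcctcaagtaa
Bcl2a1b: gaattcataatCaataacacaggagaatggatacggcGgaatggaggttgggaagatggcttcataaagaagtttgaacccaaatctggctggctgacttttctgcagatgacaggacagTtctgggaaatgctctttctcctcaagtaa
Bcl2a1d: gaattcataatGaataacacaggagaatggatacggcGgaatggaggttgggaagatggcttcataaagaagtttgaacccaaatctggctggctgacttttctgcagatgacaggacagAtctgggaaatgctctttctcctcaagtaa

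Taken from Bcl2a1b, the substitutions are C12G, G38A and T121A in Bcl2a1a, and C12G and T121A in Bcl2a1d. Each stretch is split over 2 coding exon segments. These are chr9:88957420-88957470 and chr9:88962172-88962270 in Bcl2a1a, chr9:89199729-89199779 and chr9:89207582-89207680 in Bcl2a1b, and chr9:88731300-88731350 and chr9:88723434-88723532 in Bcl2a1d. Past the stop codon the copies are closer still. Bcl2a1a differs from Bcl2a1b at 1 of 147 bases and from Bcl2a1d at 1 of 149, and Bcl2a1b and Bcl2a1d do not differ over 147 bases.

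How far 75-base reads can tell the copies apart was counted over the 426 windows of 75 bases in the last 500 bases of each transcript. In Bcl2a1a 206 windows (48.4%) also occurred in another gene, in Bcl2a1b 317 (74.4%) and in Bcl2a1d 307 (72.1%). The other genes were the remaining copies and Gm29094, an annotated gene that overlaps Bcl2a1b on the same strand. The unique window nearest to the transcript end lay 13 bases from it in Bcl2a1a, 102 in Bcl2a1b and 213 in Bcl2a1d. Single-copy values therefore depend on how the authors' counting divided shared reads, which is not given in the sources used here, and the sum depends on it less. Outside the copies, Bax shared 78 of its 426 windows (18.3%) with Gm45808, and the remaining 6 genes shared 0.

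**Figure D1:**
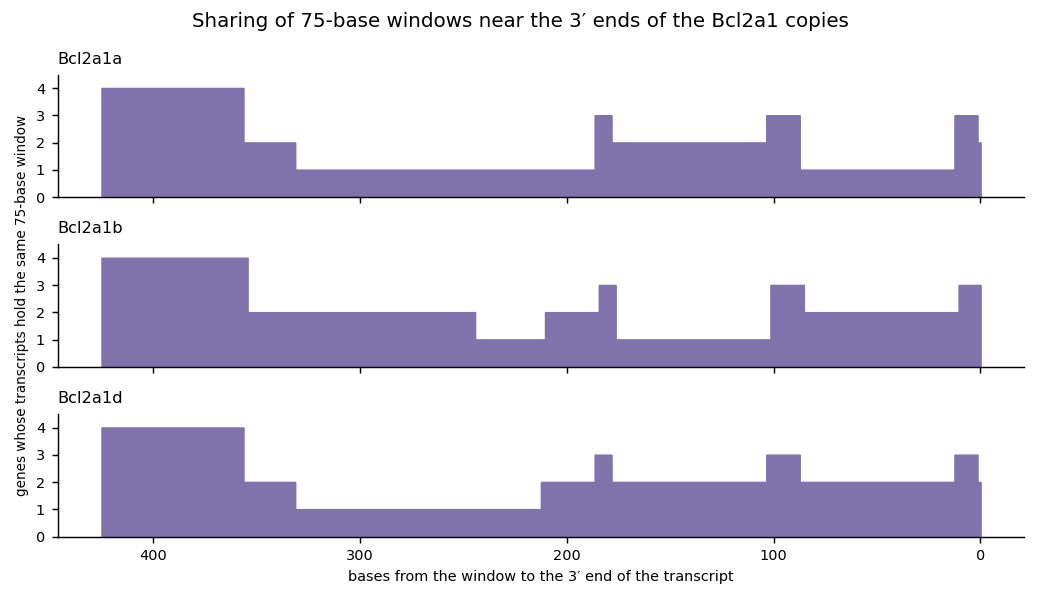
For each Bcl2a1 copy, the number of genes whose transcripts hold the same 75-base window (vertical axis) is plotted against the distance in bases from the window to the 3′ end of the transcript (horizontal axis). A value of 1 marks a window that occurs in that copy alone, and such windows lie 13 to 331 bases from the end in Bcl2a1a, 102 to 244 in Bcl2a1b and 213 to 331 in Bcl2a1d.

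Deposited totals were 224329 to 483593 counts per library. Levels are given as CPM, counts scaled by the normalised library size, and 3 counts correspond to 6.58 to 14.9 CPM, so a transcript at that level could be missed in 1 library. Ly6c2, which encodes the sorted antigen, stood at 12.0 to 74.6 CPM in Ly6Clo libraries and 372 to 546 CPM in Ly6Chi libraries, in the direction of the labels. The monocyte markers Ccr2 and Plac8 overlapped between the subsets, at 26.3 to 168 and 0 to 33.1 CPM in Ly6Clo and at 36.9 to 164 and 30.7 to 184 CPM in Ly6Chi. The macrophage list (Cd68, Adgre1, Csf1r, Fcgr1, Lyz2, Itgam, Mertk) summed to 6767 to 8338 CPM in Ly6Clo and 6937 to 11446 CPM in Ly6Chi, with Itgam at 0 in every library. Neutrophils also use Bcl2a1 genes. The 6 neutrophil markers summed to 66.4 to 137 CPM in Ly6Clo and 109 to 183 CPM in Ly6Chi. Ly6g and Retnlg were at 0 in every library, and the sum came from S100a8, S100a9, Csf3r and Cxcr2. Itgam, a macrophage marker, was at 0 as well, so a 0 does not show that a cell type was absent. The 5 dendritic cell markers summed to 9.99 to 87.8 CPM in Ly6Clo and 1.88 to 41.9 CPM in Ly6Chi, with Cd209a at 0 in every library and Ccr7 at up to 63.6 CPM. Endothelial markers summed to 56.1 to 204 CPM in Ly6Clo and 94.1 to 338 CPM in Ly6Chi, nearly all of it Kdr, with Pecam1 and Cdh5 at no more than 7.99 and 4.39 CPM. Fibroblast markers summed to 20.8 to 126 CPM in Ly6Clo and 15.8 to 156 CPM in Ly6Chi. The part of these cells in the results was not tested. In such bulk libraries, fewer cells of a type and less RNA per cell cannot be told apart.

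Among the tested guards, a difference between the subsets passed the threshold for Bcl2a1. The sum of the copies was 2.09-fold higher in Ly6Clo than in Ly6Chi macrophages, and it was not shown to differ with IL-21. The sum stood at 371 and 374 CPM in Ly6Clo libraries 1 and 2 with IL-21 and at 440 and 342 CPM in those without. In Ly6Chi libraries it stood at 159 and 202 CPM with IL-21 and at 169 and 203 CPM without. All 4 Ly6Clo libraries lay above all 4 Ly6Chi libraries, and within each subset the libraries with and without IL-21 overlapped. The order of the group means was Ly6Clo without IL-21, Ly6Clo with IL-21, Ly6Chi without and Ly6Chi with, and of neighbours in this order only the Ly6Clo and Ly6Chi groups did not overlap. In raw counts the sum amounted to 92.9 to 156 in a Ly6Clo library and 40.6 to 53.1 in a Ly6Chi library. The means were 382 ± 41.3 CPM in Ly6Clo and 183 ± 22.3 CPM in Ly6Chi (SD, n = 4 each). Fitted with edgeR, the log2 fold change was 1.06, with a standard error (SE) of 0.17, a 95% interval of 0.69 to 1.43 and an adjusted p of 0.0205 (quasi-likelihood test). Of all 5256 genes tested, 0.0951% passed an adjusted p of 0.05 as higher in Ly6Clo, while 2.61% had 4 Ly6Clo libraries above 4 Ly6Chi libraries and 2.74% had them below.

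The size of this difference held when single libraries were left out, while the call often did not. With 1 library fewer the log2 fold change ran from 0.97 to 1.15, and 5 of 8 such edgeR fits missed the threshold. These were the fits without Ly6Chi library 1 with IL-21 (0.97, adjusted p = 0.162), Ly6Chi library 1 without IL-21 (adjusted p = 0.128), Ly6Clo library 1 without IL-21 (0.97, adjusted p = 0.0795), Ly6Chi library 2 without IL-21 (1.13, adjusted p = 0.0614) and Ly6Chi library 2 with IL-21 (1.15, adjusted p = 0.0505).

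Of the single copies, Bcl2a1b carried most of the counts. It stood at 286 and 276 CPM in Ly6Clo with IL-21 and at 301 and 217 CPM in Ly6Clo without, against 113 and 128 CPM in Ly6Chi with IL-21 and 118 and 150 CPM in Ly6Chi without. Every Ly6Clo library was above every Ly6Chi library. The log2 fold change of Ly6Clo over Ly6Chi was 1.07 (SE 0.19, 95% interval 0.67 to 1.48, adjusted p = 0.036 by edgeR). It was the 1 gene called among the 8 tested, beside 0.19% of all genes tested in either direction. The call was lost with DESeq2 (adjusted p = 0.0881), without robust estimation (0.0546) and in 7 of 8 fits that left out a library, in which the log2 fold change stayed between 0.97 and 1.18.

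Bcl2a1a stood at 66.9 and 77.8 CPM in Ly6Clo with IL-21, at 108 and 87.7 CPM in Ly6Clo without, at 46.4 and 46.6 CPM in Ly6Chi with IL-21 and at 42.4 and 36.2 CPM in Ly6Chi without. No 2 groups overlapped in CPM, and the order ran from Ly6Clo without IL-21 over Ly6Clo with IL-21 and Ly6Chi with IL-21 to Ly6Chi without. In raw counts the Ly6Chi groups did overlap, at 12.3 and 9.38 with IL-21 and 10.3 and 9.5 without. The IL-21 fold change of Bcl2a1a passed the threshold in neither subset (unadjusted p = 0.233 in Ly6Clo and 0.568 in Ly6Chi by edgeR). The share of all genes with 4 groups apart in this way was not counted, so the order is a description only. The subset difference had a log2 fold change of 1.03 (SE 0.25, 95% interval 0.50 to 1.57), close to that of Bcl2a1b, and missed the threshold at an adjusted p of 0.193 by edgeR. Bcl2a1a rested on 156 counts over the 8 libraries, and Bcl2a1b on 479.

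Bcl2a1d, with 49.4 counts in all, was too low for the test. It stood at 18.0 and 20.9 CPM in Ly6Clo with IL-21, at 31.1 and 37.3 CPM in Ly6Clo without, at 0 and 27.3 CPM in Ly6Chi with IL-21 and at 8.20 and 16.9 CPM in Ly6Chi without. The subsets overlapped, since Ly6Chi library 2 with IL-21 lay above both Ly6Clo libraries with IL-21. In the library at 0, a count of 0 allows up to 3 counts, or 11.3 CPM. A fit without the filter gave a log2 fold change of 1.03 of Ly6Clo over Ly6Chi, with an SE of 0.53 and a 95% interval of -0.01 to 2.06. Bcl2a1d overlaps Gm10634 on the opposite strand, and Gm10634 was at 0 in every library.

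The share of each copy in the sum overlapped between the subsets. Bcl2a1b took a median of 70.8% of the rounded counts in Ly6Clo (63.5 to 77.4%) and 71.1% in Ly6Chi (63.4 to 75.0%). Bcl2a1a took 22.8% in Ly6Clo (18.3 to 25.6%) and 23.2% in Ly6Chi (17.3 to 28.6%). Bcl2a1d took 6.40% in Ly6Clo (4.30 to 10.9%) and 6.29% in Ly6Chi (0 to 14.6%). The counts behind these shares were small. In Ly6Chi library 2 with IL-21, for example, Bcl2a1b held 26 of 41 counts, a share of 63.4% with a 95% Wilson interval of 48.1 to 76.4%, which covers counting error only.

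**Figure D2:**
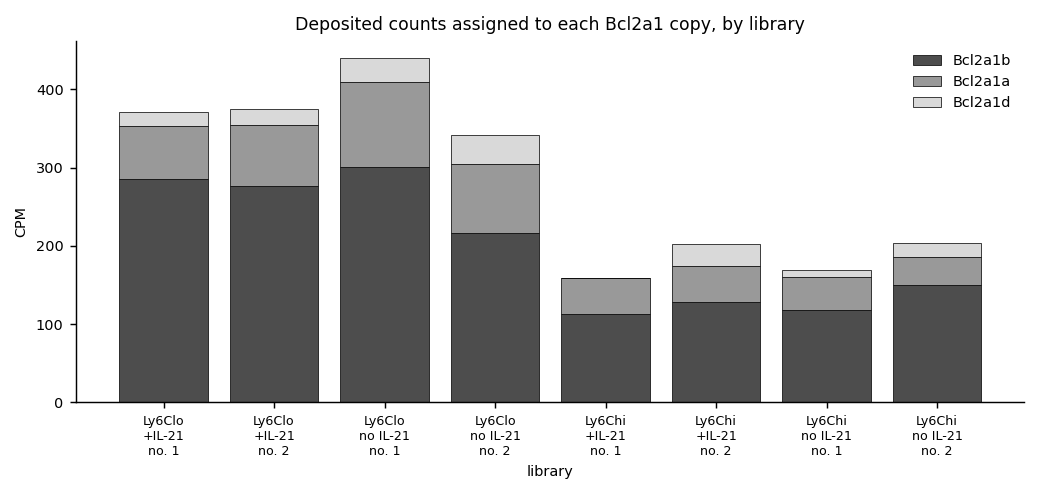
Stacked bars give the CPM of Bcl2a1b, Bcl2a1a and Bcl2a1d in each of the 8 libraries, so that the full height is the sum of the copies. The 4 Ly6Clo bars reach 342 to 440 CPM and the 4 Ly6Chi bars 159 to 203 CPM, with Bcl2a1b as the largest part of each bar.

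Another copy was barely counted, while the overlapping gene Gm29094 had 159 counts in all, beside 156 for Bcl2a1a. Bcl2a1c had 2 counts in all and at most 3.66 CPM. Gm29094, which shares windows with the copies, stood at 109 and 87.3 CPM in Ly6Clo with IL-21, at 80.8 and 77.6 CPM in Ly6Clo without, at 21.9 and 50.0 CPM in Ly6Chi with IL-21 and at 42.2 and 59.2 CPM in Ly6Chi without. Its 4 Ly6Clo libraries lay above its 4 Ly6Chi libraries too. With both genes added to the sum, an alternative chosen after seeing the data, the log2 fold change of Ly6Clo over Ly6Chi was 1.05 with an adjusted p of 0.0226 by edgeR.

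IL-21 gave no detectable change in the sum. The 4 libraries with IL-21 averaged 277 ± 112 CPM and the 4 without 288 ± 126 CPM (SD, n = 4 each), and most of that spread lay between the subsets. Averaged over the subsets, the log2 fold change of IL-21 over no IL-21 was -0.05 (SE 0.18), and its 95% interval of -0.42 to 0.32 bounds the changes these libraries leave room for. It was -0.06 (SE 0.23) within Ly6Clo and -0.05 (SE 0.26) within Ly6Chi, and the difference between these was -0.01 (SE 0.35). The single copies had IL-21 fold changes of opposite sign, and none passed the threshold. In Ly6Clo the log2 fold change with IL-21 was -0.38 (SE 0.30) for Bcl2a1a and 0.14 (SE 0.24) for Bcl2a1b. In Ly6Chi the values were 0.26 (SE 0.41) for Bcl2a1a and -0.15 (SE 0.29) for Bcl2a1b. Bcl2a1d, in the fit without the filter, had -0.94 (SE 0.60) in Ly6Clo and 0.13 (SE 0.90) in Ly6Chi.

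Mcl1, the other short-lived guard, lies at chr3:95658788-95663176 and differed between the subsets and with IL-21 by less than its SE. It stood at 1024 and 1151 CPM in Ly6Clo with IL-21, at 849 and 1038 CPM in Ly6Clo without, at 944 and 1234 CPM in Ly6Chi with IL-21 and at 1000 and 1112 CPM in Ly6Chi without. All 4 groups overlapped with their neighbours in order. The subset means were 1015 ± 125 CPM in Ly6Clo and 1073 ± 128 CPM in Ly6Chi (SD, n = 4 each), with a log2 fold change of -0.08 (SE 0.16, 95% interval -0.41 to 0.25). For IL-21 the means were 1088 ± 129 CPM with and 1000 ± 111 CPM without, with a log2 fold change of 0.12 (SE 0.16, 95% interval -0.21 to 0.46). With 2435 counts over the libraries, Mcl1 had the smallest SE of the guards, and its whole interval for the subsets lies below that of the Bcl2a1 sum. That difference between the genes was not tested.

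Bcl2l1, which encodes BCL-XL, lies at chr2:152780668-152831728. It stood at 51.3 and 86.3 CPM in Ly6Clo with IL-21, at 80.6 and 87.2 CPM in Ly6Clo without, at 48.9 and 94.0 CPM in Ly6Chi with IL-21 and at 67.6 and 59.1 CPM in Ly6Chi without. The widest gap was between the 2 Ly6Chi libraries with IL-21, and no neighbouring groups in the order of means were apart. Fitted log2 fold changes were 0.22 (SE 0.27, 95% interval -0.36 to 0.81) for Ly6Clo over Ly6Chi and -0.05 (SE 0.27, 95% interval -0.63 to 0.54) for IL-21.

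Bcl2 (chr1:106538178-106714274), the founding guard of the family, was near the limit of these libraries with 39.0 counts in all. It stood at 12.0 and 18.5 CPM in Ly6Clo with IL-21, at 22.8 and 18.7 CPM in Ly6Clo without, at 18.2 and 13.2 CPM in Ly6Chi with IL-21 and at 16.4 and 11.4 CPM in Ly6Chi without. The subsets overlapped. In CPM the 2 Ly6Clo libraries without IL-21 were the highest of the 8, though only by 18.7 against 18.5 CPM. That order did not hold in raw counts, where library 1 of that group had 5.5 and Ly6Clo library 2 with IL-21 had 7.5. The fit without the filter gave a log2 fold change of 0.27 (SE 0.55) for Ly6Clo over Ly6Chi. It gave -0.28 (SE 0.70) for IL-21 in Ly6Clo and 0.28 (SE 0.84) in Ly6Chi. Bcl2 overlaps D630008O14Rik on the opposite strand, though not in its last 500 genomic bases.

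Cflar, at chr1:58711508-58758884, stood at 213 and 317 CPM in Ly6Clo with IL-21, at 221 and 300 CPM in Ly6Clo without, at 272 and 406 CPM in Ly6Chi with IL-21 and at 280 and 377 CPM in Ly6Chi without. In every group the library numbered 2 was higher than the library numbered 1, and the groups overlapped. The means were 263 ± 53.3 CPM in Ly6Clo and 334 ± 67.8 CPM in Ly6Chi (SD, n = 4 each). The log2 fold change of Ly6Clo over Ly6Chi was -0.32 (SE 0.20, 95% interval -0.76 to 0.11), and the adjusted p by edgeR was 0.731. For IL-21 it was 0.03 (SE 0.20, 95% interval -0.40 to 0.46).

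Among the BH3-only genes, Bcl2l11 (chr2:128126038-128162547) encodes BIM, a sensor of lost growth factor that binds all the guards. It stood at 360 and 329 CPM in Ly6Clo with IL-21, at 291 and 348 CPM in Ly6Clo without, at 324 and 640 CPM in Ly6Chi with IL-21 and at 334 and 404 CPM in Ly6Chi without. The 640 CPM of Ly6Chi library 2 with IL-21 stood far above the other 7 libraries, which lay between 291 and 404 CPM. By edgeR the log2 fold change was -0.34 (SE 0.20, 95% interval -0.78 to 0.09, adjusted p = 0.715) for Ly6Clo over Ly6Chi and 0.23 (SE 0.20, 95% interval -0.20 to 0.67) for IL-21. Fits that left out 1 library gave subset values from -0.55 to -0.07 and IL-21 values from -0.05 to 0.45.

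Bid (chr6:120891930-120916853), whose protein carries the death receptor signal to mitochondria after caspase-8 cuts it, was scattered. It stood at 30.0 and 53.0 CPM in Ly6Clo with IL-21, at 27.0 and 45.4 CPM in Ly6Clo without, at 9.41 and 47.2 CPM in Ly6Chi with IL-21 and at 41.7 and 17.2 CPM in Ly6Chi without. The groups overlapped throughout, and the gene had 82.8 counts in all. Its log2 fold change was 0.59 (SE 0.49, 95% interval -0.46 to 1.64) for Ly6Clo over Ly6Chi and 0.09 (SE 0.50, 95% interval -0.99 to 1.16) for IL-21. Fits that left out 1 library gave subset values from 0.15 to 1.46. Bid overlaps Bcl2l13 at its 3′ end on the opposite strand, and without a stated use of strand their reads cannot be told apart. Bcl2l13 itself stood at 5.65 to 18.7 CPM.

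The effector Bax (chr7:45461697-45466898) stood at 258 and 337 CPM in Ly6Clo with IL-21, at 245 and 324 CPM in Ly6Clo without, at 368 and 370 CPM in Ly6Chi with IL-21 and at 309 and 274 CPM in Ly6Chi without. Both Ly6Chi libraries with IL-21 lay above all other libraries, and the share of all genes with a group on top in this way was not counted. The log2 fold change of IL-21 was 0.06 (SE 0.24, 95% interval -0.44 to 0.57) in Ly6Clo and 0.34 (SE 0.24, 95% interval -0.18 to 0.86) in Ly6Chi, neither past the threshold, and the difference between them was -0.28 (SE 0.34). For Ly6Clo over Ly6Chi it was -0.15 (SE 0.17, 95% interval -0.52 to 0.21). Gm45808, with which Bax shares sequence, stood at 0 to 12.4 CPM.

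**Figure D3:**
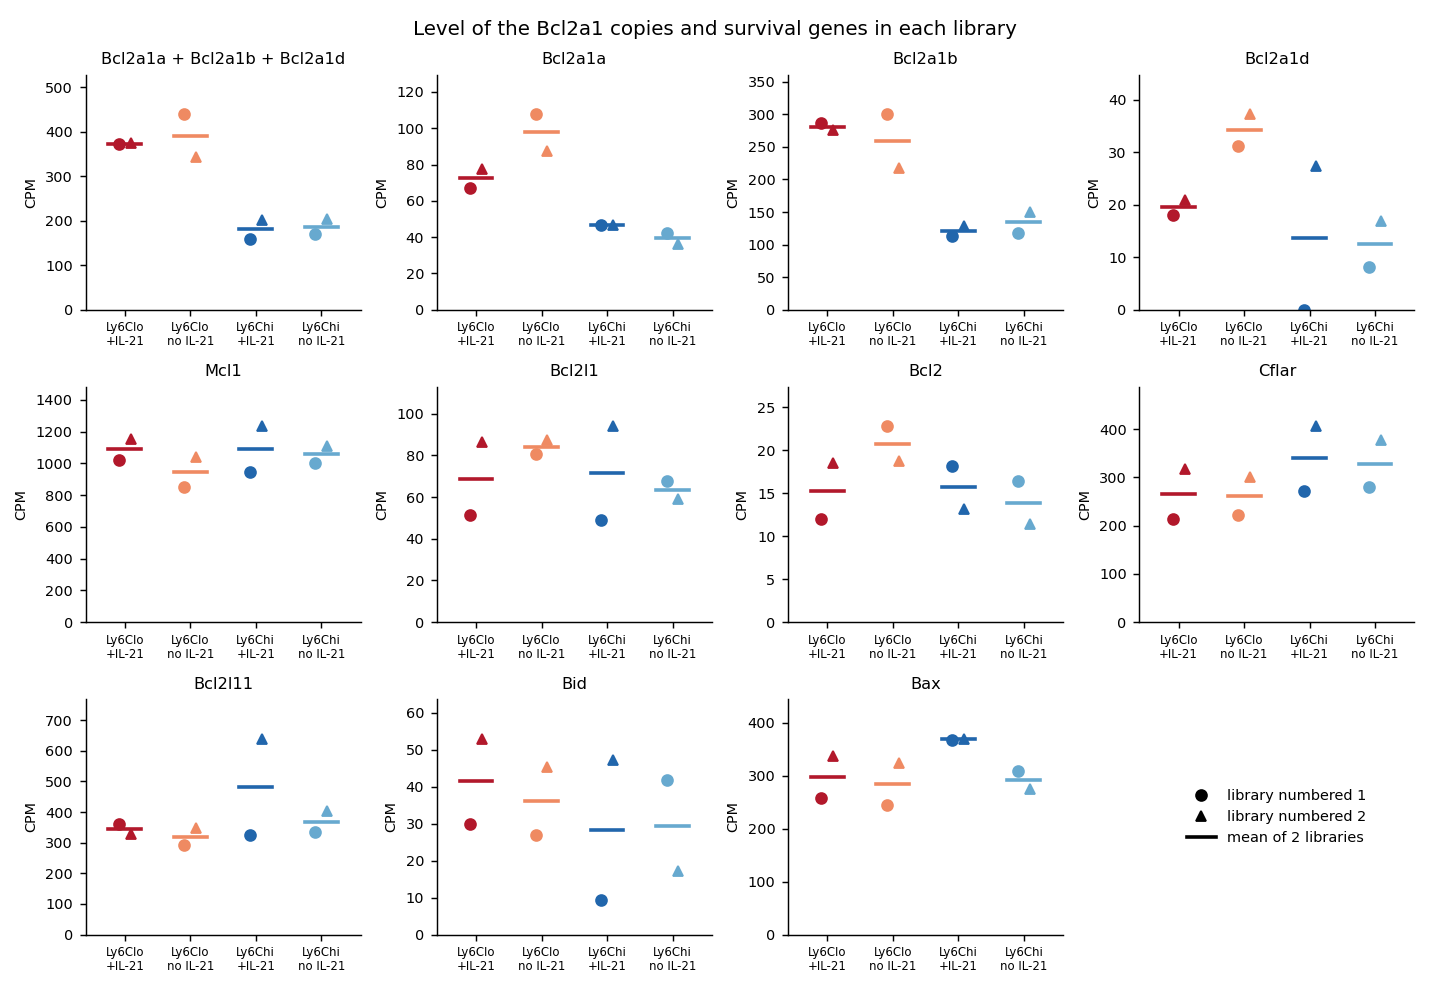
Each panel gives the CPM of the Bcl2a1 sum or of 1 gene in every library, with circles for libraries numbered 1, triangles for libraries numbered 2 and a bar for the mean of the 2 libraries of a group. The Ly6Clo points lie above the Ly6Chi points for the sum, Bcl2a1a and Bcl2a1b, and overlap them for the other genes.

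Across the tested genes, IL-21 called 0 of 8 in each comparison. Averaged over the subsets, 0.171% of all genes tested passed, in Ly6Clo 0.133%, in Ly6Chi 0.019%, and 0.0% where the IL-21 effects of the subsets were compared. By edgeR, DESeq2 and limma-voom alike, 0 of the 8 reached an unadjusted p under 0.05 in any of these comparisons. Of all genes, 280, 82 and 274 did so by these tools for IL-21 averaged over the subsets, 185, 57 and 191 within Ly6Clo, 185, 44 and 152 within Ly6Chi, and 92, 13 and 89 for the difference between subsets. With the subsets pooled, the 4 libraries with IL-21 overlapped the 4 without for all 10 genes, beside 2.23% of all genes tested with the IL-21 libraries above and 1.43% with them below. The log2 fold changes of the 8 ran from -0.06 to 0.23 for IL-21 averaged over the subsets, from -0.38 to 0.25 in Ly6Clo and from -0.15 to 0.37 in Ly6Chi. Their medians were 0.06, 0.08 and 0.09, beside medians of -0.01, -0.01 and 0.00 over all genes tested. Adjusted p-values by edgeR were 1 for each of the 8 in all of these comparisons. For Ly6Clo over Ly6Chi the 8 ran from -0.34 to 1.07 with a median of 0.07, beside 0.00 over all genes, and 2 of the 8, Bcl2a1a and Bcl2a1b, had an unadjusted p under 0.05 by edgeR, beside 7.78% of all genes.

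**Figure D4:**
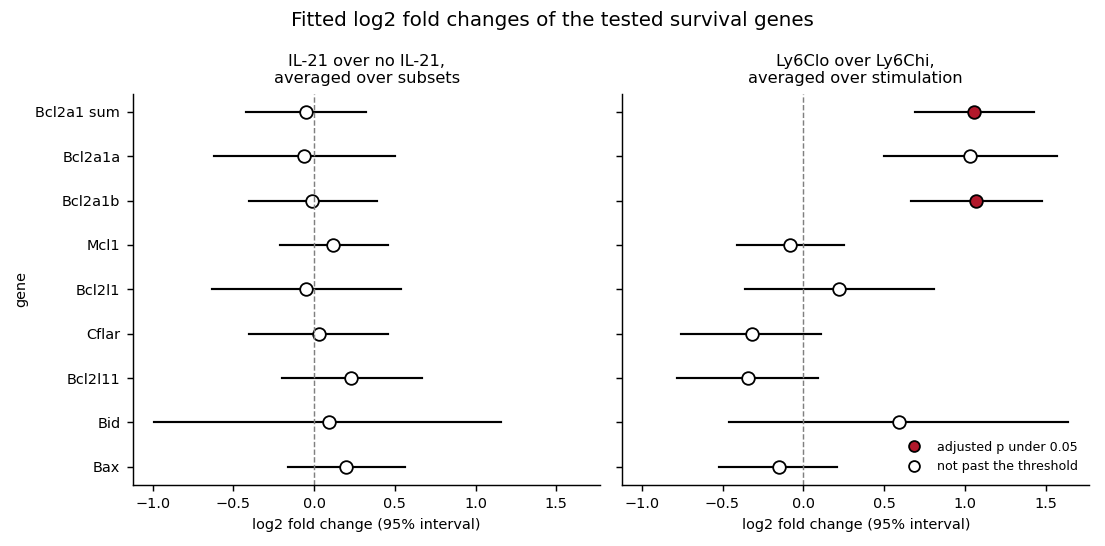
Points give the fitted log2 fold change and lines its 95% interval for the Bcl2a1 sum and the 8 tested genes, for IL-21 over no IL-21 averaged over the subsets (left) and Ly6Clo over Ly6Chi averaged over stimulation (right). Filled points mark an adjusted p under 0.05 by edgeR, which the sum (1.06) and Bcl2a1b (1.07) reached in the right panel and nothing reached in the left.

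The wider apoptosis pathway was covered by 7 lists of 53 genes, of which 30 were tested. In each of the 5 comparisons 0 of the 30 passed the adjusted threshold by edgeR in the fit with 4 group means. At an unadjusted p under 0.05, edgeR gave 4, DESeq2 1 and limma-voom 5 of the 30 for Ly6Clo over Ly6Chi, beside 7.78%, 3.03% and 8.09% of all genes tested. For IL-21 averaged over the subsets these numbers were 1, 0 and 0, beside 5.33%, 1.56% and 5.21% of all genes. Within Ly6Clo they were 1, 0 and 0, beside 3.52%, 1.08% and 3.63%. Within Ly6Chi (3.52%, 0.837% and 2.89% of all genes) and for the difference (1.75%, 0.247% and 1.69%) they were 0 with each tool. The median log2 fold change of the 30 was -0.17 for Ly6Clo over Ly6Chi, beside 0.00 over all genes. Above 0 were 7 of the 30, beside 50.4% of all genes tested. For IL-21 averaged over the subsets the median was 0.06, beside -0.01 over all genes. There 18 of the 30 were above 0, beside 48.9% of all genes tested.

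Among the other guards (Bcl2l2, Bcl2a1c, Bcl2l10, Bcl2l12) 0 of 4 genes could be tested, with Bcl2l10 at 0 in every library. Of the other effectors 1 of 2 was tested, and Bak1, the partner of Bax, had a log2 fold change of -0.18 (SE 0.19) with IL-21 averaged over the subsets. Of the other BH3-only genes 2 of 8 were tested. Bad, a BH3-only gene controlled by growth factor signals, had 0.23 (SE 0.28), and Bnip3l, which also serves the removal of mitochondria, had 0.03 (SE 0.31), both for IL-21.

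Of 11 caspase and apoptosome genes 8 were tested. Casp8, the initiator caspase that c-FLIP holds back, stood at 478 and 667 CPM in Ly6Clo with IL-21, at 399 and 546 CPM in Ly6Clo without, at 787 and 991 CPM in Ly6Chi with IL-21 and at 570 and 821 CPM in Ly6Chi without. The subsets overlapped by 1 Ly6Clo library. Its log2 fold change was -0.59 (SE 0.19, 95% interval -0.98 to -0.19, adjusted p = 0.381 by edgeR) for Ly6Clo over Ly6Chi and 0.31 (SE 0.19) for IL-21. Casp9, the caspase of the apoptosome, had -0.61 (SE 0.39) for IL-21.

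Of 7 inhibitors of apoptosis 5 were tested. Birc2, which encodes the ubiquitin ligase cIAP1, stood at 22.0 and 18.5 CPM in Ly6Clo with IL-21, at 41.5 and 38.4 CPM in Ly6Clo without, at 11.3 and 24.8 CPM in Ly6Chi with IL-21 and at 22.5 and 47.0 CPM in Ly6Chi without. The Ly6Clo libraries with and without IL-21 did not overlap and the Ly6Chi libraries did. Its log2 fold change was -0.96 (SE 0.44) for IL-21, with an adjusted p of 0.902 by edgeR, on 66.3 counts in all. Xiap, a direct inhibitor of caspases, had 0.23 (SE 0.20) averaged over the subsets. It had 0.55 (SE 0.28) in Ly6Clo and -0.08 (SE 0.29) in Ly6Chi, neither past the threshold.

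Of 12 genes of death receptors, their adaptors and necroptosis 6 were tested, and of 9 growth factor receptors and survival kinases 8 were tested. For IL-21 averaged over the subsets, the log2 fold change of Tnfaip3, which encodes the NF-kappaB brake A20, was -0.49 (SE 0.29). It was -0.90 (SE 0.39, unadjusted p = 0.0385 by edgeR) in Ly6Clo and -0.08 (SE 0.43) in Ly6Chi. Its 4 libraries with IL-21 (26.0 to 44.7 CPM) lay below the 4 without (45.8 to 71.3 CPM), beside 1.43% of all genes tested. Averaged over the subsets, Tnfrsf1a, the main receptor of TNF, had 0.27 (SE 0.18). Pim1, a survival kinase induced through STAT factors, had 0.32 (SE 0.21) and Akt2 had 0.52 (SE 0.35). None of these passed the adjusted threshold.

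The start regions of the copies, which were counted together above, were compared as well. In RefSeq's promoter windows of GRCm38.p6, 250 bases before to 50 after a gene's start, each copy holds the letters GAGGAAGT on its own strand, the binding motif of PU.1, a master factor of macrophages. Of the 32851 promoter windows searched on both strands, 1052 (3.20%) hold it, and the windows of the other 7 genes do not. The 100 bases around it are shown with the motif in capitals, at chr9:89199065-89199164 on the plus strand for Bcl2a1b and chr9:88731915-88732014 on the minus strand for Bcl2a1d. Bcl2a1a has the same letters as Bcl2a1b, at chr9:88956756-88956855 on the plus strand.
Bcl2a1b: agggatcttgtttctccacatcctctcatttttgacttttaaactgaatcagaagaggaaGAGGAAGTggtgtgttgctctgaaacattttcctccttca
Bcl2a1d: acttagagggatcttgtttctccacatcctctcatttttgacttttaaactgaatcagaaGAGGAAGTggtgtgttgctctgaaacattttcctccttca

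The copies are duplicates of one gene, so the motif they share describes 1 ancestral sequence. The STAT motif TTCNNNGAA, to which the factors activated by IL-21 bind, was in 2726 of the windows (8.30%) and in no window of the 10 genes. The NF-kappaB motif was in 2779 windows (8.46%) and in 1 of the windows of Bcl2l1. A missing match says only that these letters are not in these windows.

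The genes whose log2 CPM over the 8 libraries was most like that of the Bcl2a1 sum, among 2923 genes with a mean of at least 20 counts, were Tes (r = 0.970), Myo5a (0.963), Serpinb6a (0.954), Rpl14 (0.939) and Snhg8 (0.936). Serpinb6a encodes an intracellular protease inhibitor. Its log2 fold change of Ly6Clo over Ly6Chi was 1.10 (SE 0.20, adjusted p = 0.037 by edgeR). Tes (0.90, SE 0.26), Snhg8 (0.62, SE 0.20), Rpl14 (0.36, SE 0.16) and Myo5a (0.35, SE 0.16) did not pass this test. All 5 were picked for likeness, over these same libraries, to a sum that differed between the subsets. Their subset tests therefore add no separate support. The genes most like Mcl1 were Psmd11 (0.975), Rgl1 (0.960), Rit1 (0.959), Treml2 (0.950) and Cox14 (0.947). These values describe 8 libraries that share 2 subsets, 2 stimulations and 2 replicate numbers, and the highest of many values is high by choice.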

How the data were processed

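RNA was measured in 8 QuantSeq 3′ libraries, read as 75-base single ends with a module for molecular identifiers, per the labels' protocols. What the authors deposited are expected counts for each Ensembl gene, that is estimates which may be fractional, and they are called raw per the file headers. In each library 53.3 to 59.7% of values above 0 were not whole (tolerance 0.001). The build mm10 and DESeq2 are named per the submitters' processing notes. Which aligner, counter and annotation release were used, and whether identifiers and strand were, is not given in the sources used here.

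Of 53342 identifiers, 53237 matched GENCODE M21. Counts were rounded for the test, filtered with filterByExpr (minimum count 10, minimum total 15) and scaled by TMM. The fit used robust quasi-likelihood in edgeR 4.0.16, under R 4.3.3 with limma 3.58.1, with 4 group means, 4 residual degrees of freedom and Benjamini-Hochberg adjustment over all 5256 genes. The sum of the copies replaced its members in a second table of 5255 rows. DESeq2 1.42.0, limma-voom, other filters and scalings, and leaving out each library were alternatives. Members, lists and tests were chosen with earlier results of these data known. All 10 members are named, with the 2 tested genes of smallest p for IL-21 in each list, and the 5 genes most like the sum and Mcl1. A marker gene of the monocyte list is not reported here.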

Additional observations from a re-analysis of the deposited data

How the results depend on the processing

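Depth and the 2 libraries per group limit these results. The Bcl2a1 sum had 40.6 counts in its lowest library, and 2 of 10 genes did not pass the filter on low counts. For Ly6Clo over Ly6Chi the sum kept its call under every alternative that used all libraries and more than Bcl2a1a, with log2 fold changes of 1.05 to 1.07 and adjusted p from 4.37e-05 to 0.046 (DESeq2 0.0376). Bcl2a1a alone gave 1.03 (adjusted p = 0.193 by edgeR), and leaving out libraries gave 0.97 to 1.15. Genes called among the 10 were 0 with DESeq2, 0 without robust estimation and 0 to 1 with a library left out, against 1 in the fit reported. Over all genes, 10 were called there, 58 without the filter, 4 without robust estimation and 3 to 22 with a library left out. For IL-21 averaged over the subsets 9 were called (35 without the filter, 5 to 15 with a library left out), for Ly6Chi 1 (8, and 0 to 3). For Ly6Clo 7 were called, against 16 without the filter, 2 at a mean count of at least 20, 4 with limma-voom, 3 with unrounded values, 2 without robust estimation, 0 in a fit of that subset alone and 0 to 7 with a library left out. The difference called 0, and 1 without the filter. The cause was not tested.

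Replicate numbers come from the titles, and the labels give no shared mouse, batch or day. Deviations of same-numbered libraries correlated at 0.234 to 0.412 over 6 pairs of groups. With the replicate number as a block, 132 genes were called between the subsets, 60 for IL-21 averaged, 29 in Ly6Clo, 14 in Ly6Chi and 1 for the difference. Among the 10 genes 2 were then called between the subsets, Bcl2a1b and Bcl2a1a (1.04, adjusted p = 0.0212 by edgeR). Of the pathway lists 2 were called, Casp8 (-0.60, adjusted p = 0.00153) and Csf2ra (-0.39, adjusted p = 0.0242). The block gave the sum 1.06 (adjusted p = 7.62e-05) between the subsets and turned its difference of IL-21 effects to 0.01.

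Other turns of sign were in IL-21 values near 0 that passed no test. The sum gave 0.26 in Ly6Chi from Bcl2a1a alone, 0.14 in Ly6Clo from Bcl2a1b alone and 0.00 there with Bcl2a1c and Gm29094 added (chosen after seeing the data). Its difference of effects gave 0.02 without the filter, 0.01 with limma-voom, 0.30 from Bcl2a1b alone and 0.15 with the genes added. With limma-voom the averaged effect was 0.01 for Bcl2a1b and -0.15 for Bid. Cflar gave -0.00 in Ly6Clo at a mean count of at least 20 and 0.01 for the difference without the filter.

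With a library left out, some fold changes that passed no test changed sign, among them IL-21 values of 0.37 for Bcl2l11 in Ly6Chi and differences of -0.37 for Bcl2l1 and 0.32 for Bid. Their lowest and highest log2 values follow. Averaged over the subsets they were -0.14 to 0.04 for the Bcl2a1 sum, -0.14 to 0.01 for Bcl2a1a, -0.11 to 0.11 for Bcl2a1b, -0.30 to 0.18 for Bcl2l1, -0.05 to 0.45 for Bcl2l11, -0.79 to 0.54 for Bid and -0.14 to 0.17 for Cflar. In Ly6Clo they were -0.22 to 0.13 for the Bcl2a1 sum, -0.07 to 0.38 for Bcl2a1b, -0.68 to 0.04 for Bcl2l1, -0.01 to 0.25 for Bcl2l11, -0.14 to 0.31 for Bax, -0.22 to 0.84 for Bid and -0.31 to 0.30 for Cflar. In Ly6Chi they were -0.22 to 0.13 for the Bcl2a1 sum, -0.28 to 0.02 for Bcl2a1b, -0.17 to 0.23 for Mcl1, -0.37 to 0.58 for Bcl2l1, -0.20 to 0.80 for Bcl2l11, -1.83 to 0.83 for Bid and -0.28 to 0.32 for Cflar. For the difference of IL-21 effects they were -0.18 to 0.18 for the Bcl2a1 sum, -0.02 to 0.37 for Mcl1, -0.82 to 0.14 for Bcl2l1, -0.69 to 0.29 for Bcl2l11, -0.58 to 2.08 for Bid and -0.34 to 0.30 for Cflar. For Ly6Clo over Ly6Chi they were -0.17 to 0.01 for Mcl1 and -0.01 to 0.47 for Bcl2l1.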

Other observations

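Set against the libraries of the same number and stimulation, Cflar stood lower in Ly6Clo by almost the same amount in all 4 comparisons. The log2 differences of Ly6Clo minus Ly6Chi were -0.35 and -0.36 with IL-21 and -0.34 and -0.33 without, although all 4 libraries numbered 2 were above those numbered 1. The fitted subset difference of -0.32 had an adjusted p of 0.731 by edgeR and did not pass. For the Bcl2a1 sum the same differences were 1.21 and 0.88 with IL-21 and 1.37 and 0.75 without, larger in the libraries numbered 1. These values were singled out after they had been seen, and the labels do not say what a number shares.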
